A study of Mus musculus with 4 samples.

Results

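Genomic imprinting was examined through 8 imprinted genes in the CA1 field of the mouse hippocampus: Meg3, Igf2, Nnat, Peg3, Ndn, Mest, Igf2r and Cdkn1c. They were taken from a list of 10, are 8 of the 8251 genes that the platform annotation names alone on a probe set, and are represented by 13 of the 12422 probe sets that remained once the 66 control probe sets were left out, each annotated to that gene symbol alone. H19 was not analysed here, since the probe set that lists it also lists Mir675, the microRNA gene that lies inside H19, and Snrpn was not analysed here. The list was chosen by gene symbol and was headed by Meg3 after the intensities of these arrays were known, so the levels and differences of Meg3 are given as a description and support nothing by themselves.

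The samples were total RNA of the CA1 field from young male C57BL/6J mice that were only handled. They are 4 arrays, extracted 1, 2, 4 and 6 hr after mice of a separate, shocked group had received the last of their shocks, with 1 array at each time, and the shocked group was not analysed here. All 4 share the strain, the sex and the lack of any treatment, and no source used here says how many animals an array stands for. The arrays therefore show how far imprinted genes differed between unshocked CA1 samples, and a difference between times cannot be told apart from a difference between animals, dissections or hybridisations. Each value is the authors' deposited intensity of a probe set, scaled so that all arrays have the same trimmed mean.

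Imprinted genes are transcribed mainly from the copy inherited from 1 parent, a choice that is set by DNA methylation in the germ line and kept in the cells of the offspring. Many of them lie in clusters that share a control region, and many act on growth, placenta, metabolism and brain. Meg3, Igf2r and Cdkn1c are maternally expressed in most mouse tissues, with Igf2r expressed from both copies in mouse neurons, whereas Igf2, Nnat, Peg3, Ndn and Mest are paternally expressed. The choroid plexus and the leptomeninges, which border the hippocampus, are the best known site of Igf2 in the brain and use both copies. The arrays measure the sum of both copies, so nothing here bears on which copy was used, and in bulk tissue fewer cells of a type cannot be told apart from less RNA per cell.

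The first promoter of Meg3 carries a cAMP response element core, the letters TGACGTCA, to which factors of the CREB family bind. It is shown because Meg3 gave the widest range of values of any probe set, together with that of Peg3, which holds the same letters and whose values stayed within a far narrower range. The windows run from 250 bases before to 50 bases after the RefSeq start of the gene (GRCm38.p6), 5′ to 3′ on the strand of the gene, with the motif in capitals. Meg3 lies at chr12:109540746-109541045 (plus strand) and Peg3 at chr7:6730370-6730669 (minus strand).
Meg3: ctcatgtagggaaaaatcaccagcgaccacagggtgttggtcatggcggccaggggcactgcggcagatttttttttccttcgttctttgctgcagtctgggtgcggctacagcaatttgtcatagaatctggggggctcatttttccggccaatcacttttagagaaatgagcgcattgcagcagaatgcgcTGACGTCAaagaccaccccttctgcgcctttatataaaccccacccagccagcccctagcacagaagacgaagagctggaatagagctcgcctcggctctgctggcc
Peg3: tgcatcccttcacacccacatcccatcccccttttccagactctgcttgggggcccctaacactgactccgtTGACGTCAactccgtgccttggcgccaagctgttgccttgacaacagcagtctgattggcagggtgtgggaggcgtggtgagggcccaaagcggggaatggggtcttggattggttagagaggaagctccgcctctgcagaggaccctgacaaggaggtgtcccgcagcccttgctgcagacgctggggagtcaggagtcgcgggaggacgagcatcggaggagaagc

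The element began 57 bases before the start of Meg3 and 178 bases before that of Peg3. Its letters, which read the same on both strands, were present in 1.79% of all 32851 promoter windows and in 2 of the 13 windows of the 7 genes that matched the table. The second Meg3 start did not hold them in its window. Nnat and Ndn shared a different element, the core GCATGCGC of the NRF1 motif, found on either strand in 2.71% of all windows. In Nnat at chr2:157559828-157560127 (plus strand) matches on both strands overlap, and in Ndn at chr7:62348027-62348326 (plus strand) there is 1 match, 22 bases before the start. They are shown because both genes ranked high on every array. So did Peg3 96765_at, at percentile 95.4 to 96.7, and Igf2 98623_g_at, at 87.9 to 94.8, against 79.8 to 92.8 for Nnat. No Peg3 or Igf2 window held this core.
Nnat: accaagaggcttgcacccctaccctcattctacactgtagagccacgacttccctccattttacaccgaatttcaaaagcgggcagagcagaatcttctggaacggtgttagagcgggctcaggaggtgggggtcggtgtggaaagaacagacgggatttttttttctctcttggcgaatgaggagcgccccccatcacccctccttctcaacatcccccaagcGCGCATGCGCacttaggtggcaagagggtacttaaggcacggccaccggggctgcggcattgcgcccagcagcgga
Ndn: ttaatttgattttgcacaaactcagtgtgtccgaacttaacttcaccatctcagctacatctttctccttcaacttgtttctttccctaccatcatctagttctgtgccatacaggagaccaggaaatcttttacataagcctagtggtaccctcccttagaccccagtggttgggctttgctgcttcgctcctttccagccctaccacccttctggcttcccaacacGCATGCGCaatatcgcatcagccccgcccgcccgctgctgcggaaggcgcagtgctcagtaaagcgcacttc

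The motifs were picked after the promoters had been read. A match describes the letters of the window and shows neither binding nor a cause.

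Meg3, a long non-coding RNA made from the maternal copy of the Dlk1-Dio3 cluster, was higher at each later time through both of its probe sets. Probe set 160172_at read 87.8, 940.2, 2723.6 and 3416.2 at 1, 2, 4 and 6 hr. The 1 hr array was far below the others, and the difference of 6 hr over 1 hr was 38.9-fold. Probe set 160173_at read 767.4, 1118.9, 1475.3 and 2002.8, in the same order but over a smaller range, 2.61-fold for 6 hr over 1 hr. Between neighbouring times 160172_at was 10.7-fold, 2.90-fold and 1.25-fold higher at 2, 4 and 6 hr than at the time before, and 160173_at was 1.46-fold, 1.32-fold and 1.36-fold higher.

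Set beside all 12422 probe sets, 160172_at had the widest range over the arrays, 5.28 log2 units, and the largest difference of 6 hr over 1 hr. The next in that difference, a probe set with no gene symbol, lay 2.99 log2 units higher at 6 hr. The next in range was the Ttr probe set at 4.52 log2 units, whose high array was the one at 4 hr. Probe set 160173_at ranked 346th in the difference of 6 hr over 1 hr and 1916th in range. Without the 1 hr array the contrast was smaller: 160172_at was 3.63-fold higher at 6 hr than at 2 hr, rank 113, and 160173_at was 1.79-fold higher, rank 1145. The order of the 4 values of both probe sets was the same after quantile normalization and after a shift to a common median, where 160172_at differed 42.8-fold between 6 hr and 1 hr on the first of these scales.

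**Figure D1:**
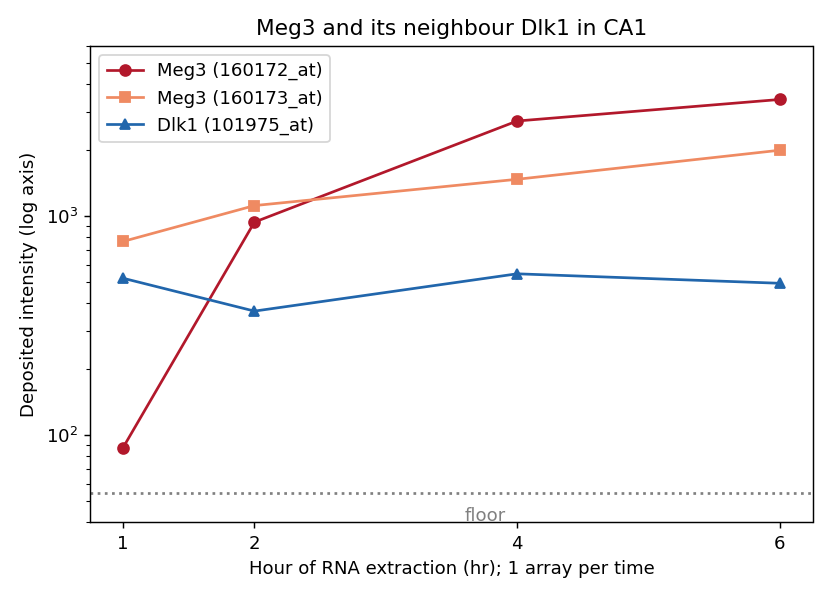
Deposited intensity (log axis) of both Meg3 probe sets and of Dlk1 against the hour of extraction, 1 array per point, with the floor of 54.6 dotted. Meg3 160172_at runs through 87.8, 940.2, 2723.6 and 3416.2 and 160173_at through 767.4, 1118.9, 1475.3 and 2002.8, while Dlk1 stays between 368.7 and 545.9.

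Values in strictly increasing order of time were found for 3 of the 13 probe sets, both of Meg3 and that of Igf2r, against 3.89% of all probe sets. The list was headed by Meg3 with these values known, so this count is a description and shows no excess among imprinted genes. The order was read on intensities without the floor, so the share of all probe sets can include orders among values under it. The order of Igf2r was lost after a shift to a common median. Of 903 genes with at least 2 probe sets above the filter on mean level, 0.443%, or 4 genes, had all of them in that order. These were Meg3, Baz1b, a chromatin remodelling subunit, Rbm39, a splicing factor, and Tulp3, a protein of cilia. In each of the 4 genes the sizes differed between probe sets, as for Rbm39 with 2.74 log2 units between 6 hr and 1 hr through 94689_at and 0.85 through 93267_at. Rbm39 94689_at, at 43.5, and Tulp3 97694_at, at 39.7, lay under the floor at 1 hr, so their differences were measured from the floor.

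A straight line over the hours gave a slope of 0.95 ± 0.245 log2 units per hr for 160172_at and 0.26 ± 0.065 for 160173_at (SE from limma). With limma and Benjamini-Hochberg adjustment over 7453 probe sets neither slope passed (adjusted p = 0.883 for each), and 0% of all probe sets passed, with 382 at an unadjusted p under 0.05. The fit has 2 residual degrees of freedom, and limma draws the scatter of each probe set toward that of all tested ones. With no filter on mean level the SEs of these slopes were 0.338 and 0.035. Without the 1 hr array the slope of 160172_at was 0.47 ± 0.12 (limma adjusted p = 0.997), and without the 6 hr array it was 1.52 ± 0.32 (limma adjusted p = 0.593).

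**Figure D2:**
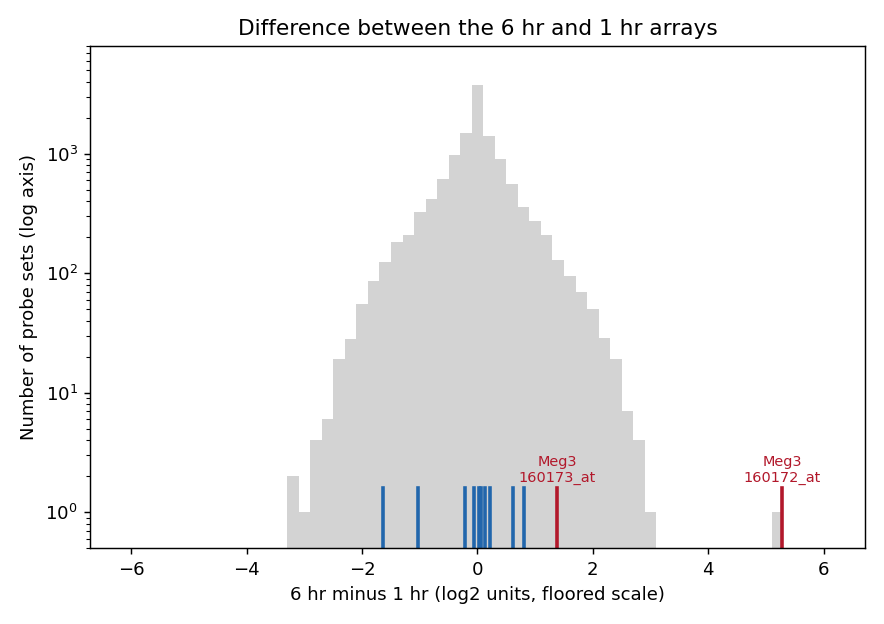
Histogram (log axis) of the difference of the 6 hr from the 1 hr array in log2 units for all probe sets, with the imprinted probe sets above the floor as ticks, red for Meg3 and blue for the others. Meg3 160172_at stands at 5.28, beyond the next probe set at 2.99, and 160173_at at 1.38.

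Dlk1, the paternally expressed neighbour of Meg3 that encodes a membrane protein of the Notch ligand family, read 520.9, 368.7, 545.9 and 494.1 at 1, 2, 4 and 6 hr. It was lowest at 2 hr, with the other 3 arrays within 494.1 to 545.9, and it was chosen for its position beside Meg3 after its values were seen. Rian, Mirg, Rtl1 and Dio3 of the same cluster were not analysed here. Meg3 also hosts the microRNA genes Mir770 and Mir1906-1, which these probe sets are not annotated to.

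The genes whose profile was nearest to that of 160173_at, by root mean square difference of centred log2 values over the 4 arrays, were Arhgef2, Slc1a2, Rsrp1, Smc3 and Tppp3, at 0.025 to 0.097 log2 units. Slc1a2, the main glutamate transporter of astrocytes, read 217.7, 329.6, 451.1 and 580.3 in time order. Rsrp1 read 1481.0, 2147.8, 2784.0 and 3477.7. For 160172_at, which had the widest range of any probe set, no gene came close. The measure counts the size of the differences, so a large distance was largely fixed by that range. It does not show that the order of the times was unusual. The nearest, Cpsf4, was 0.92 log2 units away, followed by Acy1, Atf6b, Acsf3 and Stxbp2 up to 1.04. The pair of Meg3 probe sets differed from each other by 1.62. Among tested probe sets with 1 gene symbol, 6703 lay closer to 160173_at than 160172_at did. In the other direction, 183 lay closer to 160172_at than 160173_at did. The pair thus shared the order of the times but not the size of the differences.

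The growth factor Igf2 was highest at 4 hr. Probe set 98623_g_at read 1460.9, 1287.5, 2564.2 and 1491.7 at 1, 2, 4 and 6 hr. The 4 hr array was 1.72-fold above the next highest, and the other 3 lay within 1287.5 to 1491.7. The other Igf2 probe set, 98622_at, which the annotation ties to the same source sequence, read between 9.6 and 26.7 and lay under the floor of 54.6 on all 4 arrays, so its values have no order. It was the only member probe set that did not pass the filter on mean level. The slope of 98623_g_at over the hours was 0.06 ± 0.10 log2 units per hr (SE; adjusted p from limma = 1.00). It was 0.02 without the 4 hr array and 0.30 without the 6 hr array.

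Markers of tissues bordering CA1 were read beside Igf2. Ttr, the transthyretin of the choroid plexus, read 140.3, 140.3, 3216.8 and 196.2 at 1, 2, 4 and 6 hr, 16.4-fold above the next highest array at 4 hr and second in range among all probe sets. Slc4a5, a bicarbonate transporter of the choroid plexus, read 92.9 at 4 hr and was under the floor on the other arrays. Other markers of the list were not highest there through the probe set of highest mean. Kl read 266.1 at 4 hr against 370.0 at 2 hr, and Folr1 93785_at read 206.3 at 4 hr against 277.8 at 1 hr. Another Folr1 probe set, 162302_f_at, was above the floor at 4 hr alone, at 56.6. Foxj1, a factor of ciliated ependyma, read 464.3 at 4 hr against 662.1 at 1 hr. The water channel Aqp1 read 118.3 at 4 hr against 317.3 at 1 hr through 161559_i_at, and its other probe set, 93330_at, was under the floor on all arrays. Cldn2 was under the floor on all arrays.

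The summed level of the 7 choroid plexus and ependyma markers on the array, of 13 listed, was 1514, 1132, 4412 and 1359 at 1, 2, 4 and 6 hr, and most of the 4 hr sum was Ttr. Leptomeningeal and fibroblast markers, 13 of 14 on the array, summed to 11790, 14174, 13196 and 10343, with 4 of the 13 highest at 4 hr. Among these Igfbp2, a binding protein of IGF2, read 304.2, 284.3, 566.9 and 299.9, and Slc6a13, a GABA transporter of the meninges, read 469.6, 474.8, 644.2 and 455.6. Both were highest at 4 hr, as Igf2 was, and so were Mgp and Col1a2, the latter through 161156_r_at. The other 9 were not, and the summed level was highest at 2 hr. Another Col1a2 probe set, 101130_at, read 51.1, 90.1, 31.7 and 39.5, above the floor at 2 hr alone. Ptgds, the prostaglandin D synthase of the meninges, read 6508.7, 9834.3, 7256.1 and 4978.7, highest at 2 hr. The matrix proteoglycan Bgn read 515.7, 346.6, 542.4 and 578.1, highest at 6 hr. Col3a1 read 251.9 at 1 hr and was under the floor at 2 and 4 hr, and Slc22a6 was under it at 1 and 2 hr. The part of bordering tissue in the Igf2 values was not tested.

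**Figure D3:**
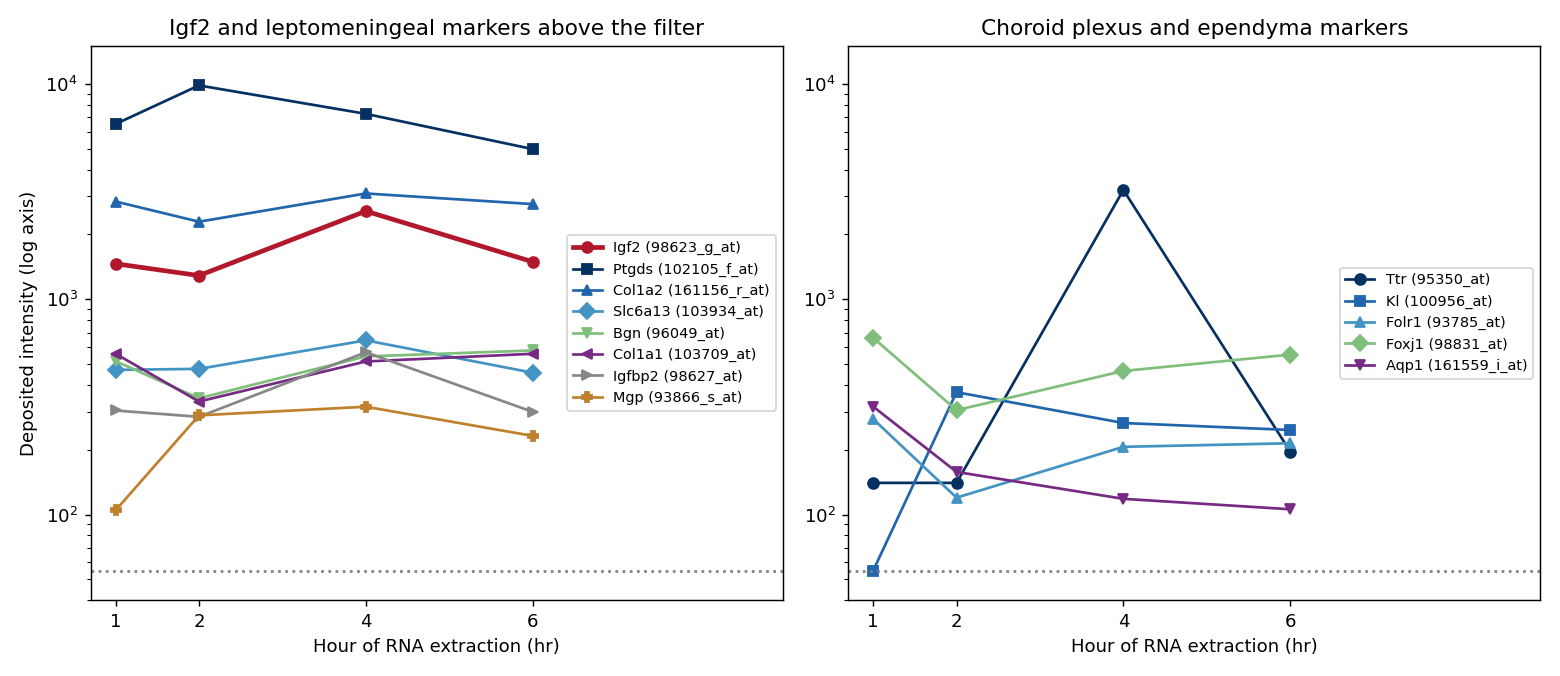
Deposited intensity (log axis) against the hour of extraction, 1 array per point, for Igf2 with the 7 leptomeningeal markers above the filter at the left and for 5 choroid plexus and ependyma markers at the right, with the floor dotted. Igf2 (2564.2), Igfbp2, Slc6a13, Mgp, Col1a2 161156_r_at and Ttr (3216.8) are highest at 4 hr, whereas Ptgds, Bgn, Col1a1, Kl, Folr1 93785_at, Foxj1 and Aqp1 161559_i_at are not.

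Igf2r, the mannose 6-phosphate receptor that clears IGF2 from the cell surface, read 325.6, 370.3, 411.6 and 569.4 at 1, 2, 4 and 6 hr. Its 6 hr value was 1.75-fold that at 1 hr, and the slope was 0.15 ± 0.06 log2 units per hr (SE; adjusted p from limma = 0.965). After a shift to a common median its value of 392.7 at 4 hr lay below the 416.8 at 2 hr, so the time order depended on the scale. In the wider IGF pathway 14 of 18 listed genes were on the array. Of these, 6 were higher and 7 lower at 4 and 6 hr than at 1 and 2 hr, where 46.5% of all probe sets were higher. Of the 8 listed genes above the filter none passed the trend test. Igfbp7 and Irs2, an adaptor of the insulin and IGF receptors, lay 0.79 and 0.54 log2 units higher, and Irs2 read 486.9, 549.6, 620.2 and 907.9. Igfbp6 read 400.9, 548.4, 162.8 and 96.9, a difference of -1.90, and Igf2bp1, below the filter, read 107.5, 89.3, 36.2 and 56.9.

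Nnat encodes neuronatin, a small membrane protein of the endoplasmic reticulum of neurons. Its probe set 97520_s_at read 2014.9, 743.9, 933.6 and 981.6 at 1, 2, 4 and 6 hr. The 1 hr array was 2.05-fold above the next highest, at 6 hr, and the other 3 lay within 743.9 to 981.6. Standing at least 2-fold above each other array at 1 hr was seen in 1.96% of all probe sets. The slope over the hours was -0.13 ± 0.13 log2 units per hr (SE; adjusted p from limma = 1.00). After a shift to a common median the values were 964.3 at 6 hr and 1927 at 1 hr, just under 2-fold apart.

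Nnat lies inside an intron of Blcap, which was measured by 98055_at at 792.6, 1215.3, 998.5 and 904.3 and was lowest, not highest, at 1 hr. Nnat is also known as a marker of CA3 neurons. Of the CA3 markers Bok, Prkcd, Socs2 and Nectin3, 4 of 8 listed, 0 were highest at 1 hr, and their sums were 2412, 2240, 2470 and 2023 at 1, 2, 4 and 6 hr. Nectin3 and Prkcd lay 0.44 and 0.20 log2 units higher at 4 and 6 hr than at 1 and 2 hr, and the difference of Socs2 was -0.47. Foxj1, Folr1 93785_at and Aqp1 161559_i_at of the ependyma and choroid plexus were highest at 1 hr, as given above, while Kl was at its lowest, 54.8. The other probe sets of Folr1 and Aqp1 were under the floor at 1 hr. The part of these tissues in the Nnat values was not tested.

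Ndn and Peg3 were well above the floor on every array, and none of their 5 probe sets stood 2-fold apart on any array. Ndn, a MAGE family protein of the Prader-Willi region, read 4659.9, 7422.9, 4668.0 and 5109.3 through 101059_at and 1663.0, 1804.8, 1516.3 and 1728.5 through 94811_s_at. Both were highest at 2 hr, 1.45-fold and 1.04-fold above the next array. After quantile normalization 94811_s_at was highest at 6 hr, at 1745 against 1739 at 2 hr. Probe set 101059_at lay at percentile 97.4 to 98.5 of all probe sets of its array. The slopes were -0.03 ± 0.09 and -0.01 ± 0.06 log2 units per hr (SE; adjusted p from limma = 1.00 for each).

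Peg3 encodes a zinc finger protein that binds DNA. It was measured by 96765_at at 3367.8, 3139.6, 3157.7 and 3925.0, a mean of 3398 ± 367 (SD over 4 arrays, which are not replicates). Probe set 101451_at read 1162.6, 1758.4, 1016.8 and 1783.7, and 161316_f_at read 881.9, 571.9, 692.5 and 843.6. At 2 hr 101451_at was close to its highest value while 161316_f_at was at its lowest, so the Peg3 probe sets had no shared profile. Their ranges were 0.32, 0.81 and 0.62 log2 units, where the median over all probe sets was 0.65, those under the floor throughout included.

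Mest, a protein of the alpha/beta hydrolase fold, was lowest at 6 hr, where Meg3 was highest. Its probe set read 236.2, 130.6, 138.3 and 75.6 at 1, 2, 4 and 6 hr, 0.320-fold at 6 hr relative to 1 hr. The values at 2 and 4 hr were close together, and after quantile normalization or a shift to a common median all 4 were in decreasing order of time. The slope was -0.27 ± 0.08 log2 units per hr (SE; adjusted p from limma = 0.890), and with the floor at the 40th percentile it was -0.14. Its percentile was 30.3 at 6 hr and 53.6 at 1 hr. Mest hosts the microRNA gene Mir335.

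Cdkn1c encodes p57, a maternally expressed inhibitor of the cell cycle, and read 188.8, 79.8, 181.6 and 161.8 at 1, 2, 4 and 6 hr. The 2 hr array was lowest, with the next lowest 2.03-fold above it, and the other 3 were close together. Of all probe sets 1.29% stood apart in this way at 2 hr. That array also had the lowest median intensity, 173 against 198 to 204 on the others. Quantile normalization gave 97.0 at 2 hr, against 158.8 to 178.5, so Cdkn1c then no longer stood 2-fold apart.

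In all, 3 of the 13 probe sets stood at least 2-fold apart from each other array on 1 array, where 9.58% of all probe sets did so: Meg3 160172_at, below the rest at 1 hr (1.2% of all probe sets), Nnat and Cdkn1c. With a common median, Meg3 160172_at was the only one left. Of the 13, 7 were higher and 5 lower at 4 and 6 hr than at 1 and 2 hr, with a median difference of 0.11 log2 units, and 46.5% of all probe sets were higher, with a median of 0. The median range was 0.81 log2 units for the 13 and 0.65 for all. Probe sets under the floor on all arrays have a difference and a range of 0 and share rank 10993 of 12422 in range. They lower both the share of all probe sets that were higher and the median range of all. By array, 4, 2, 2 and 5 of the 13 had their highest value at 1, 2, 4 and 6 hr.

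**Figure D4:**
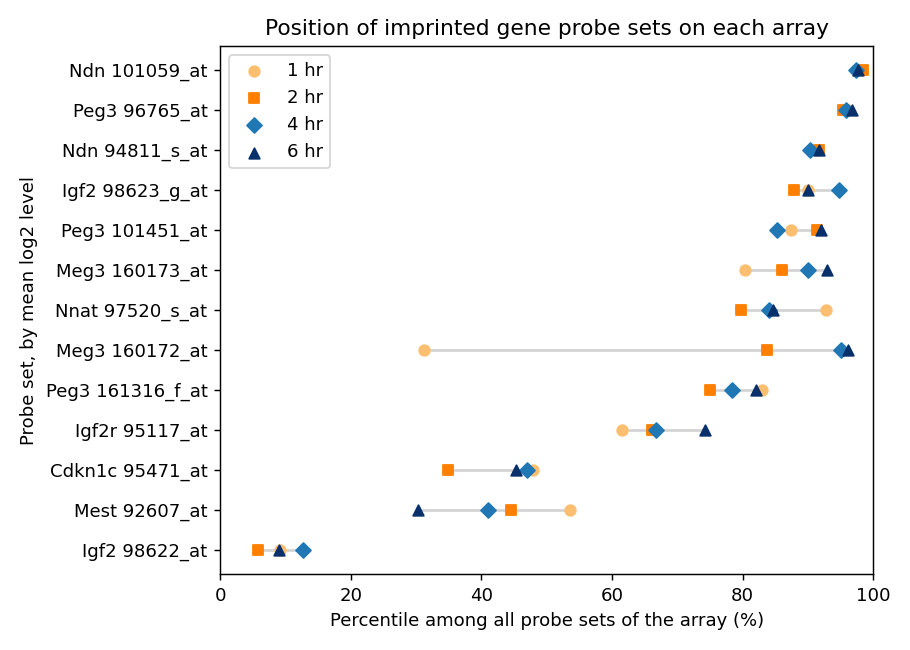
Percentile of each imprinted probe set among the 12422 probe sets of its array, by mean log2 level, with a symbol for each hour and a grey line over its range. Ndn 101059_at stays at 97.4 to 98.5, while Meg3 160172_at lies at 31.3, 83.7, 95.1 and 96.1 at 1, 2, 4 and 6 hr and Igf2 98622_at lies at the bottom.

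Of the 13 probe sets, 10 had a mean log2 level above the median of all. The percentile of 160172_at was 31.3, 83.7, 95.1 and 96.1 at 1, 2, 4 and 6 hr. Percentiles of 80.4 to 92.9 were found for 160173_at, 87.9 to 94.8 for Igf2 98623_g_at, 79.8 to 92.8 for Nnat, 61.6 to 74.3 for Igf2r and 35.0 to 48.0 for Cdkn1c. A percentile places a probe set on its array and, since probe sets differ in how strongly they respond, does not rank the amounts of different transcripts.

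**Figure D5:**
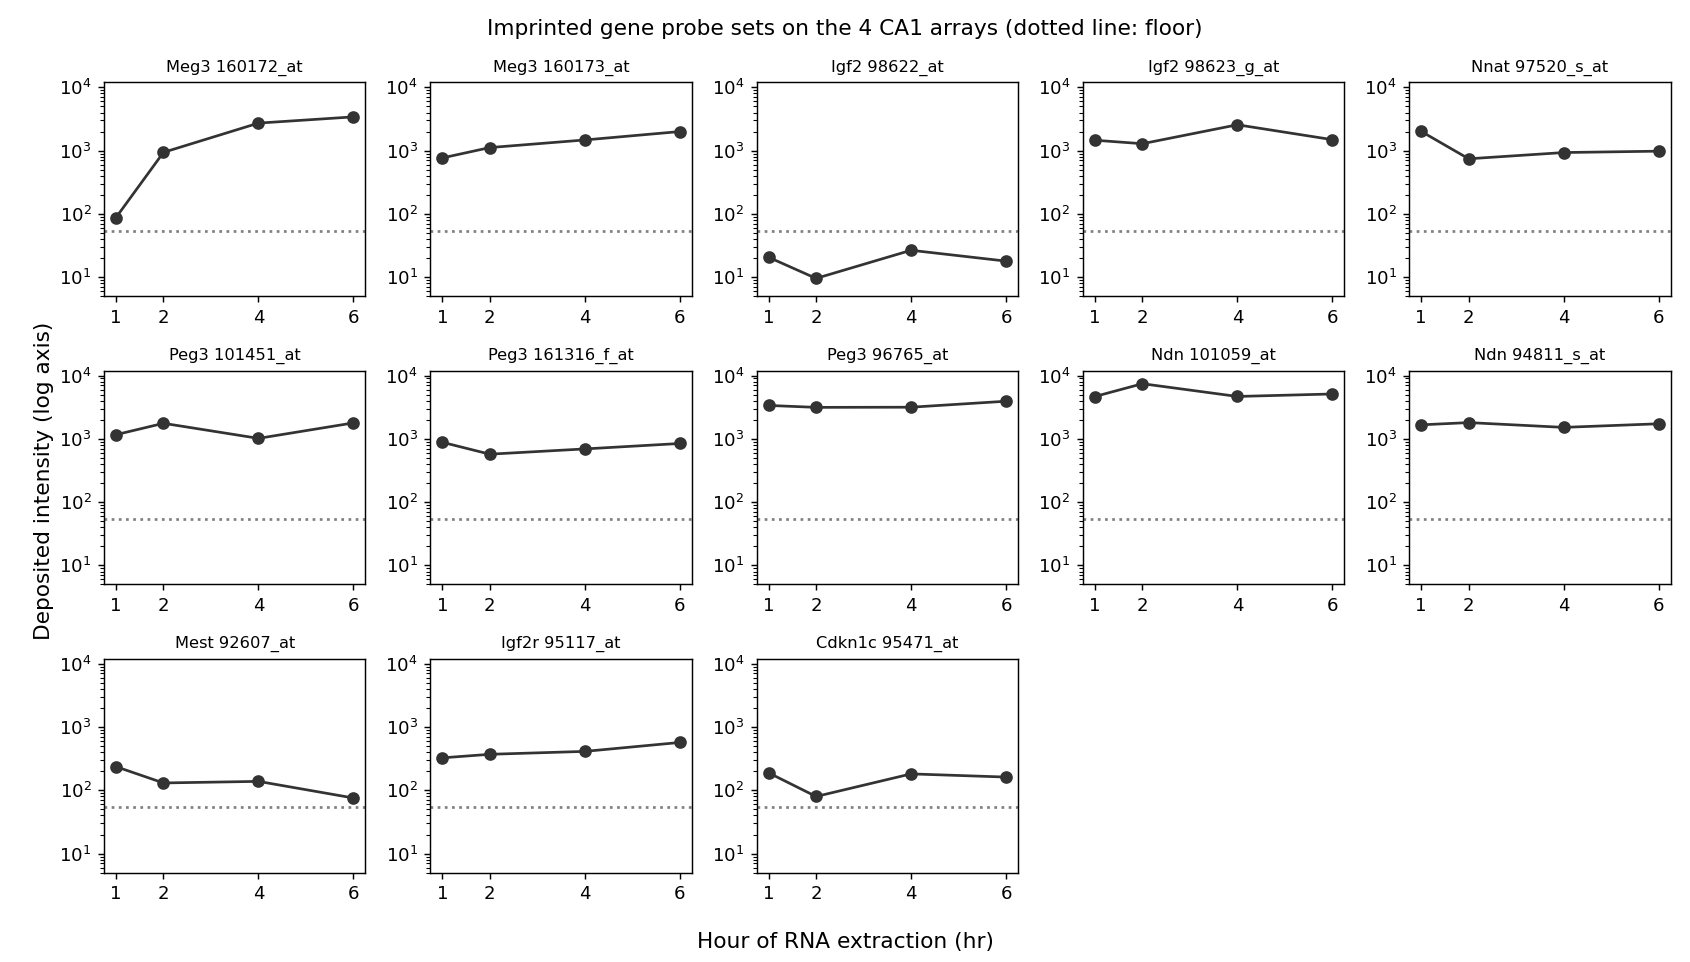
Deposited intensity (log axis) of each of the 13 imprinted probe sets against the hour of extraction, 1 panel per probe set on a common scale, 1 array per point, with the floor of 54.6 dotted. The wide range of Meg3 160172_at (87.8 to 3416.2) contrasts with the narrow ranges of Ndn 94811_s_at (1516.3 to 1804.8) and Peg3 96765_at (3139.6 to 3925.0).

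Other imprinted genes were read from a list of 63, of which 32 were on the array and 18 above the filter. At 4 and 6 hr 18 were higher and 12 lower than at 1 and 2 hr, with a median difference of 0.04 log2 units. Over all probe sets 46.5% were higher, with a median of 0, a share lowered by those under the floor throughout. None of the 18 above the filter passed the trend test, in which 0% of all probe sets passed. Of the 32, 1 was in strictly increasing order, near the 3.89% of all probe sets: Tspan32, a tetraspanin below the filter, at 60.3, 64.3, 90.8 and 111.0. Among those above the filter the largest positive differences were 0.54 for Dlx5, a homeobox factor of inhibitory neurons, 0.36 for Kcnq1, a potassium channel, and 0.31 for Grb10, an adaptor that restrains insulin signalling. The largest negative ones were -0.56 for H13, a signal peptide peptidase, -0.44 for Ddc, an enzyme of dopamine and serotonin synthesis, and -0.29 for Commd1.

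Standing apart on 1 array was seen in 3 of the 32, a share close to the 9.58% of all probe sets. Magel2, a neighbour of Ndn, read 144.5 at 4 hr and was under the floor on the other arrays. Peg10, a gene derived from a retrotransposon, read 126.7 at 6 hr and was likewise under the floor before. H13 read 61.9 at 6 hr, against 128.8 to 189.6 at the other times. Gnas, the stimulatory G protein alpha subunit, read 42966.2, 39424.6, 35368.2 and 48868.7 through 93271_s_at, lowest at 4 hr and highest at 6 hr. Another Gnas probe set, 92672_at, had the opposite order there, at 137.0, 82.7, 178.1 and 34.5, and 102082_at was above the floor at 1 hr alone. Xist, known from female cells, read 8.7 to 91.8 in these male samples.

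Proteins that keep imprints were measured through 10 of 15 listed genes, of which 5 were above the filter and entered the trend test, and none passed. Trim28, the corepressor that guards methylated imprinting control regions, read 4993.4, 5527.2, 6233.3 and 5953.6, and the maintenance methyltransferase Dnmt1 read 684.3, 817.6, 848.6 and 816.6. Both were lowest at 1 hr, and both were singled out after their values were seen. The list had 6 genes higher and 4 lower at 4 and 6 hr, where 46.5% of all probe sets were higher. Uhrf1, a partner of Dnmt1, did not pass the filter and read 36.0, 99.9, 278.2 and 61.4, high on the 4 hr array alone. Tet1, which oxidises methylcytosine, was under the floor on all but the 6 hr array. The differences of Ctcf, the insulator protein of the Igf2 and H19 region, and Yy1 were -0.63 and -0.26.

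CA1 identity and array quality bear on all of these values. CA1 pyramidal markers were present on every array: Wfs1 read 1752.6, 2593.5, 2574.1 and 1667.9, and the 4 of 8 listed genes on the array summed to 4002, 4819, 4799 and 4025. The 9 general neuron markers summed to 38524, 41236, 36808 and 39221, a sum led by Snap25. Single markers differed more, as Nefm, a neurofilament, at 398.4, 211.2, 81.6 and 116.5 and Map2, a dendritic protein, at 56.0, 139.6, 105.1 and 157.3. The part of neuron content in the Meg3 values was not tested. Sums ranged from 21783 to 23142 for astrocyte, 18127 to 24614 for oligodendrocyte, 8232 to 9566 for microglial and 1865 to 2519 for endothelial and mural markers. They were 33404 to 38096 for inhibitory neuron and 4026 to 5041 for dentate granule markers. Penk and Calb1 led the dentate sum, while Prox1 was under the floor at 2 and 4 hr. Septal, thalamic and hypothalamic markers summed to 2834, 2181, 3605 and 3318 at 1, 2, 4 and 6 hr. Of the 9 on the array, 6 were highest at 4 hr and 3 at 6 hr, where both Meg3 probe sets were higher. Among them 1 was under the floor on all arrays. The part of these neighbouring tissues in the Meg3 values was not tested. The 3′ to 5′ ratio of the Actb control lay between 2.99 and 3.44. That of Gapdh was 4.84, 7.56, 6.25 and 4.89 at 1, 2, 4 and 6 hr, highest on the array where Cdkn1c stood apart. The part of RNA quality in the member values was not tested. The ribosomal 18S control, 3′ end, gave 1383, 1150.0, 3325 and 3381 at 1, 2, 4 and 6 hr, and so was higher on the 2 arrays where both Meg3 probe sets were higher. Its part in the Meg3 values was not tested.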

How the data were processed

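The authors deposited a linear intensity for each of 12488 probe sets on each of 4 arrays; the software behind it is not named in any source read here. Each deposited intensity column had a mean of 500.3 once 2% was trimmed from both ends, which points to scaling to a common level, so a shift of most genes together would not show. Precision is limited by having 4 arrays. Gene names came from the platform annotation, and all 13 member probe sets matched a RefSeq gene (GRCm38.p6). For log2 values, intensities under 54.6 (the 25th percentile) were raised to that floor; intensities and percentiles given for an array have neither floor nor filter. A line over hours was fitted with limma 3.58.1 in R 4.3.3 (lmFit, eBayes) to the 7453 probe sets whose mean log2 exceeded the 40th percentile, with Benjamini-Hochberg adjustment at 0.05. The fit was also run on data simulated from its own scatter with planted slopes, which checks the code and not the power for the slopes given here. For its SEs and p-values, limma draws the scatter of a probe set toward that of all tested ones. They reflect only how these arrays scatter about a line, possibly for technical reasons.

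The members and lists were chosen with earlier results of these data known. A listed gene was read through the probe set with its highest mean. Named were all member probe sets and, of other imprinted genes, the 3 with the largest difference each way and those standing apart. Of the IGF, imprint maintenance and CA3 lists, up to 2 each way were named. Choroid plexus and leptomeningeal markers were named more fully beside Igf2, and the remaining lists were given mainly as sums. Dlk1, Blcap, Gnas, Trim28, Dnmt1, Igfbp2, Slc6a13 and other markers were named for their position, level or profile after their values were seen.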

Additional observations from a re-analysis of the deposited data

How the results depend on the processing

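No probe set passed the trend test under any of the 13 alternatives (other scales, floors, filters and time codings, another prior, and each array left out), where the smallest adjusted p from limma ran from 0.354 to 0.997. Slopes of the members kept their direction in 143 of 154 repeats. Among the exceptions, Peg3 161316_f_at gave -0.0101 per log2 of hours and Peg3 101451_at -0.0864 log2 units for 4 and 6 hr against 1 and 2 hr. With 1 array left out, the slopes that turned ranged from -0.294 to 0.1 log2 units per hr for Nnat, -0.135 to 0.0245 for Ndn 101059_at, -0.056 to 0.00676 for Ndn 94811_s_at, -0.0425 to 0.255 for Cdkn1c, -0.112 to 0.109 for Peg3 101451_at, -0.0799 to 0.14 for Peg3 161316_f_at and -0.026 to 0.0805 for Peg3 96765_at. The 3 member probe sets that stood apart became 1 with a common median and 7 at a limit of 0.5 log2 units, where 4003 of all probe sets did; over all probe sets the count of 1190 became 2437 with the floor at the 10th percentile and 275 at the 40th. No paired analysis was possible because each time has 1 array. Values under the floor have no order, which limits Igf2 98622_at.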
